A study of Saccharomyces cerevisiae S288C with 18 samples.

Results

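The transcripts described here are the 8 messenger RNAs and the 2 ribosomal RNAs (rRNAs) encoded in the mitochondrial DNA of the yeast Saccharomyces cerevisiae. The mRNAs are COX1 (Q0045), COX2 (Q0250), COX3 (Q0275), COB (Q0105), ATP6 (Q0085), ATP8 (Q0080), OLI1 (Q0130) and VAR1 (Q0140), and the rRNAs are the 15S (Q0020) and 21S (Q0158) rRNAs. They were chosen by gene name, without use of any measured value. The 10 genes hold 12 of the 23521 rows of the count files, because COX1 and COB each have an exon row and an intron row. RNA was sequenced in 18 libraries, 3 for each of 6 groups, from cells grown exponentially in rich YPD medium at 30°C. In 4 groups a protein tagged with TAP, whose protein A part binds IgG, was purified with its RNAs on IgG-coated magnetic beads: Rpl16a-TAP, Upf1-TAP, Lsm1-TAP and Pab1-TAP. The group called control went through the same purification with strain BY4741, which has no tagged protein, and measures RNA that stays on the beads without a tag. The group called input is RNA from an aliquot of the total extract taken just before purification. The tagged strains derive from BY4741 and carry the tag with the HIS3MX6 marker, and the labels name no strain for input.

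Mitochondrial mRNAs are made inside the organelle by a dedicated RNA polymerase, carry neither a cap nor a poly(A) tail in yeast, and are translated by mitochondrial ribosomes that contain the 15S and 21S rRNAs. The tagged proteins work outside that compartment. Upf1 is the helicase of nonsense-mediated decay, Pab1 binds the poly(A) tails of cytoplasmic mRNAs, Rpl16a belongs to the large subunit of the cytoplasmic ribosome, and Lsm1 helps to form a complex that binds mRNAs after they lose their poly(A) tails. The comparison with input therefore asks how the share of these organellar RNAs in the RNA recovered with each protein compared with their share in total RNA. The comparison with control sets that share against their share in the RNA that the beads retained without a tag. Neither comparison gives an amount of RNA on the beads.

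All 10 genes lie on the forward strand of the mitochondrial chromosome (M, 85779 bases, assembly R64). COX1 spans chrM:13818-26701 in 8 exons, COB chrM:36540-43647 in 6 exons and the 21S rRNA chrM:58009-62447 in 2 exons. The others have no intron: COX2 at chrM:73758-74513, COX3 at chrM:79213-80022, ATP6 at chrM:28487-29266, ATP8 at chrM:27666-27812, OLI1 at chrM:46723-46953, VAR1 at chrM:48901-50097 and the 15S rRNA at chrM:6546-8194. A and T make up 82.89% of the chromosome, 66.67% of the OLI1 coding sequence and 89.64% of that of VAR1. Yeast mitochondrial mRNAs end in place of a poly(A) tail at a conserved dodecamer, AATAATATTCTT, and the stretch around it is shown because this is the feature that sets the 3′ ends of these mRNAs apart from those of cytoplasmic mRNAs. The dodecamer was present on the sense strand within 1500 bases after the stop codon of 6 of the 8 mRNAs, and 15.88% of all windows of that length on this strand hold it. It was taken by a search of these same windows, as the 12-base word rarest on this strand among those in at least 6 of them. Both figures follow from that choice and are no test of the motif. In each 30-base stretch below, from RefSeq assembly R64 and 5′ to 3′, capitals mark the dodecamer.
COX1, chrM:26761-26790, dodecamer 68 bases after the stop codon: taatataatAATAATATTCTTataaaaata
COX2, chrM:74567-74596, 62 bases after: aataattatAATAATATTCTTaaatataat
COX3, chrM:80114-80143, 100 bases after: tattattatAATAATATTCTTacaaatata
COB, chrM:43736-43765, 97 bases after: taatactttAATAATATTCTTaaaaataat
ATP6, chrM:29344-29373, 86 bases after: cccccttttAATAATATTCTTttatctaat
VAR1, chrM:50668-50697, 579 bases after: aataaataaAATAATATTCTTaatttttat
The nearest dodecamer after ATP8 is that of ATP6, 1540 bases after its stop codon, and the nearest after OLI1 is that of VAR1, 3723 bases after. The match is of letters only, and the 3′ ends themselves were not measured.

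The libraries held 2790148 to 16381719 counted reads. Cytosolic rRNA took 0.0683% to 67.3% of them, and 8 libraries had more than 5%: replicate 3 of every group, control replicate 2 and Lsm1-TAP replicate 2. Reads of the mRNA rows, introns included, were 0.0664% to 0.162% of all reads in input, 0.105% to 0.182% in control and 0.0627% to 0.246% in Lsm1-TAP. They were 0.0123% to 0.0529% in Upf1-TAP, 0.0100% to 0.0157% in Rpl16a-TAP and 0.00510% to 0.0441% in Pab1-TAP. The smallest of these shares, in Pab1-TAP replicate 1, rests on 430 reads and has a 95% Wilson interval of 0.00464% to 0.00560%, which covers counting error only. No library of Upf1-TAP, Rpl16a-TAP or Pab1-TAP reached the lowest library of input, control or Lsm1-TAP. In a purified or total RNA sample, less of an RNA cannot be told apart from more of all other RNAs, so every level below is relative to the other RNAs of its library.

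Levels are given as CPM, reads per 1000000 counted reads after TMM scaling, which sets the libraries to a common level for most features. Per kilobase of unshared exon, the input level was highest for OLI1 (3920 ± 857 CPM per kb, SD, n = 3), followed by COX3 (629 ± 201), COB (352 ± 216), ATP6 (195 ± 92.7), COX1 (149 ± 40.8) and COX2 (117 ± 51.6). VAR1 had 6.84 ± 8.21 and ATP8 3.01 ± 3.54 CPM per kb. Neighbours from COX3 down to COX2 and the pair of VAR1 and ATP8 lay within each other's spread, whereas OLI1 in its lowest library (3052) stood above COX3 in its highest (769). For COX1, 633 of 1605 exon bases and for COB 402 of 1158 are not shared with annotated reading frames of the introns. The 19 rows of intron reading frames held 0 reads in all 18 libraries, so reads from the shared bases appear to be left out. The counting settings for shared bases are not given. Levels per kilobase of COX1 and COB are for the unshared stretches. Over the whole exon length COB would be at 122 CPM per kb in input, below ATP6, and COX1 at 58.9, below COX2.

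Of the 12 rows, Upf1-TAP had 6 lower than input, Pab1-TAP had 7, Rpl16a-TAP had 5, Lsm1-TAP had 1 and control had 0, and none was higher (edgeR quasi-likelihood test, Benjamini-Hochberg adjusted p under 0.05 over 12582 features). The background, the share of all features called lower, was 15.9%, 7.89%, 4.00%, 9.77% and 6.96% in the same order. The share called higher was 22.2%, 9.89%, 5.62%, 13.1% and 9.21%. The rows that were lower in each of Upf1-TAP, Pab1-TAP and Rpl16a-TAP were COX2, COX3, the COB exons, ATP6 and OLI1, by 7.29-fold to 39.2-fold. In control the count of 0 goes with 2 rows at an unadjusted p under 0.05 and 1 row called by DESeq2. The median log2 fold change against input of the 10 mRNA rows was −3.60, −3.70, −3.11, −1.11 and −0.28 in that order, whereas that of all features was 0.27, 0.23, 0.03, 0.13 and 0.04. These 5 comparisons share the input libraries.

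**Figure D1:**
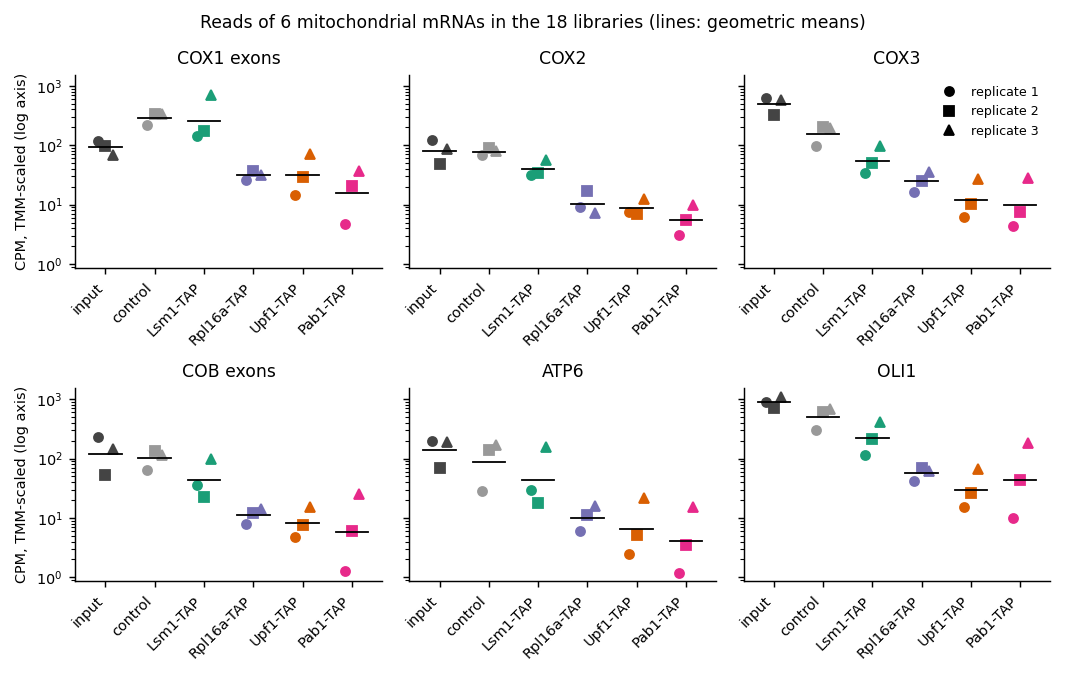
CPM (TMM-scaled, log axis) of 6 mitochondrial mRNAs in every library, by group, with circles, squares and triangles for replicates 1, 2 and 3 and lines for geometric means. COX2, for example, lay between 48.2 and 124 in input, between 68.0 and 88.9 in control and between 3.03 and 17.2 in the Rpl16a-TAP, Upf1-TAP and Pab1-TAP libraries.

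COX1, COX2 and COX3 encode the catalytic core of cytochrome c oxidase, the last enzyme of the respiratory chain. COX2 was at 124, 48.2 and 85.4 CPM in input, 68.0, 88.9 and 78.6 in control and 31.2, 33.8 and 56.9 in Lsm1-TAP. It was at 8.99, 17.2 and 7.11 CPM in Rpl16a-TAP, 7.44, 7.03 and 12.5 in Upf1-TAP and lay at 3.03, 5.47 and 9.87 in Pab1-TAP. The last 3 groups overlapped one another and lay below every library of the other groups. COX2 was 9.58-fold lower in Upf1-TAP than in input (log2 fold change −3.26 ± 0.47, SE, edgeR adjusted p = 7.73e-05), 14.3-fold lower in Pab1-TAP (−3.84 ± 0.49, adjusted p = 0.000178) and 7.29-fold lower in Rpl16a-TAP (−2.87 ± 0.48, adjusted p = 0.00252). Control and input did not separate for this mRNA (−0.13 ± 0.43, edgeR adjusted p = 0.877).

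COX3 was at 623, 323 and 582 CPM in input, 98.6, 199 and 198 in control and 33.6, 51.1 and 95.4 in Lsm1-TAP. It was at 16.6, 25.3 and 35.5 CPM in Rpl16a-TAP, 6.13, 10.2 and 26.7 in Upf1-TAP and lay at 4.36, 7.53 and 27.8 in Pab1-TAP. Input lay above all 15 purification libraries, and control above all libraries of the tagged proteins. The difference from input was −5.15 ± 0.72 on the log2 scale in Upf1-TAP (edgeR adjusted p = 6.09e-05), −5.29 ± 0.73 in Pab1-TAP (adjusted p = 0.000372), −4.35 ± 0.71 in Rpl16a-TAP (adjusted p = 0.00237) and −3.08 ± 0.66 in Lsm1-TAP (adjusted p = 0.00322). COX3 was the only row called in Lsm1-TAP. In control it was at −1.62 ± 0.62, which did not pass (adjusted p = 0.0819), although the groups did not overlap.

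COX1 had another order. Its exons were at 120, 95.7 and 68.1 CPM in input, at 223, 337 and 331 in control and at 143, 171 and 689 in Lsm1-TAP, so that all libraries of both purifications exceeded input. They were at 26.4, 36.6 and 31.3 CPM in Rpl16a-TAP, 14.6, 29.2 and 72.3 in Upf1-TAP and lay at 4.80, 20.7 and 37.1 in Pab1-TAP, and of these only Upf1-TAP replicate 3 reached into the input range. The exons differed from input by 1.82 ± 0.67 on the log2 scale in Lsm1-TAP (edgeR adjusted p = 0.0569) and by 1.65 ± 0.67 in control (adjusted p = 0.0982), neither of which passed. They were 4.58-fold lower in Pab1-TAP (−2.20 ± 0.68, adjusted p = 0.0333), and the values in Upf1-TAP (−1.29 ± 0.66, adjusted p = 0.130) and Rpl16a-TAP (−1.59 ± 0.68, adjusted p = 0.136) did not pass. The intron row of COX1 was lower than input in Upf1-TAP (−4.31 ± 1.57, adjusted p = 0.0374) and Pab1-TAP (−4.70 ± 1.603, adjusted p = 0.0492). Both intron calls and the exon call in Pab1-TAP were lost without single libraries, to an edgeR adjusted p of 0.0748 to 0.116 for the introns in Upf1-TAP (without Upf1-TAP replicate 1 or 2 or input replicate 1 or 3), of 0.0648 to 0.125 for the introns in Pab1-TAP (without Pab1-TAP replicate 1 or 2 or any input library) and of 0.0823 to 0.103 for the exons (without Pab1-TAP replicate 1 or 2 or input replicate 1 or 2). Without Upf1-TAP replicate 3 the exons passed in Upf1-TAP as well (−2.11, adjusted p = 0.0307), and without Lsm1-TAP replicate 2 they passed as higher in Lsm1-TAP (2.15, adjusted p = 0.0412).

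COB encodes cytochrome b, the only subunit of the bc1 complex (complex III) made in mitochondria. Its exons were at 227, 53.4 and 144 CPM in input, 65.0, 133 and 117 in control and 36.1, 22.4 and 98.5 in Lsm1-TAP, and these groups overlapped. They were at 7.88, 12.3 and 14.2 CPM in Rpl16a-TAP, 4.73, 7.70 and 15.5 in Upf1-TAP and lay at 1.26, 6.01 and 24.9 in Pab1-TAP. All libraries of Rpl16a-TAP and Upf1-TAP lay below those of input, control and Lsm1-TAP, while Pab1-TAP replicate 3 exceeded the lowest library of Lsm1-TAP. The exons were 15.3-fold lower than input in Upf1-TAP (−3.93 ± 0.84, edgeR adjusted p = 0.00146), 13.6-fold lower in Pab1-TAP (−3.76 ± 0.84, adjusted p = 0.00576) and 12.8-fold lower in Rpl16a-TAP (−3.68 ± 0.86, adjusted p = 0.0130). The intron row of COB held 1 to 236 reads per library and was not called. It passed as lower than input in Upf1-TAP without Upf1-TAP replicate 3 (−4.83, edgeR adjusted p = 0.0282) and in Pab1-TAP without Pab1-TAP replicate 3 (−5.96, adjusted p = 0.0288).

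ATP6, ATP8 and OLI1 (subunit 9) encode the membrane part of the ATP synthase. OLI1 was at 911, 705 and 1101 CPM in input, 308, 613 and 688 in control and 114.9, 216 and 419 in Lsm1-TAP. It was at 41.3, 70.3 and 61.1 CPM in Rpl16a-TAP, 15.1, 26.5 and 67.8 in Upf1-TAP and lay at 10.1, 43.2 and 180 in Pab1-TAP. Every input library was above every purification library, and only Pab1-TAP replicate 3 reached into the range of Lsm1-TAP. OLI1 was 24.8-fold lower than input in Upf1-TAP (−4.63 ± 0.84, edgeR adjusted p = 0.000401), 11.7-fold lower in Pab1-TAP (−3.54 ± 0.79, adjusted p = 0.00617) and 15.7-fold lower in Rpl16a-TAP (−3.98 ± 0.81, adjusted p = 0.00668). Its value in Lsm1-TAP, −1.86 ± 0.74, did not pass (adjusted p = 0.0777).

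ATP6 was at 199, 68.8 and 188 CPM in input, 28.6, 139 and 171 in control and 29.2, 18.1 and 159 in Lsm1-TAP. It was at 5.95, 11.2 and 15.6 CPM in Rpl16a-TAP, 2.51, 5.14 and 21.7 in Upf1-TAP and lay at 1.20, 3.50 and 15.4 in Pab1-TAP. These last groups lay below input and control in every library, and only Upf1-TAP replicate 3 exceeded a library of Lsm1-TAP. ATP6 was 15.6-fold lower than input in Upf1-TAP (−3.96 ± 1.02, edgeR adjusted p = 0.00551), 23.7-fold lower in Pab1-TAP (−4.57 ± 1.06, adjusted p = 0.00749) and 14.9-fold lower in Rpl16a-TAP (−3.90 ± 1.06, adjusted p = 0.0268). In Rpl16a-TAP the calls of ATP6 and of the COB exons were lost without Rpl16a-TAP replicate 1, Rpl16a-TAP replicate 2 or input replicate 1, each of which left 3 rows called of 5, with an edgeR adjusted p of 0.0921 to 0.109 for ATP6 and 0.0630 to 0.0659 for COB. ATP8 held 0 to 24 reads and passed the filter only through control replicate 2, Upf1-TAP replicate 3 and Lsm1-TAP replicate 3, so nothing can be read from its values at this depth.

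VAR1 encodes a protein of the small mitochondrial ribosomal subunit. It held 2 to 171 reads per library and was not called in the fit of all 18 libraries by group alone. VAR1 passed as lower in Upf1-TAP than in control when Upf1-TAP replicate 3 was left out (−4.42, edgeR adjusted p = 0.0470). It also passed in some comparisons with the replicate number as a block or without libraries rich in cytosolic rRNA, as given below. Its level was 19.5, 2.00 and 3.05 CPM in input, 10.8, 17.1 and 11.7 in control and 6.18, 3.69 and 8.92 in Lsm1-TAP. In the other purifications replicate 3 was apart, with 0.691, 0.750 and 41.2 CPM in Rpl16a-TAP, 0.821, 0.395 and 13.4 in Upf1-TAP and lay at 0.379, 0.0897 and 5.02 in Pab1-TAP. Rpl16a-TAP replicate 3, the library with 67.3% cytosolic rRNA, gave its highest value of all 18 libraries.

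The 15S and 21S rRNAs were not called in any comparison with input or control in the fit of all 18 libraries by group alone. The 21S rRNA was at 66.3, 93.5 and 68530 CPM in input, 55.01, 21104 and 24329 in control and 22.1, 74.5 and 12029 in Lsm1-TAP. It was at 22.3, 31.6 and 6949 CPM in Rpl16a-TAP, 7.34, 9.68 and 1916 in Upf1-TAP and lay at 1.83, 4.39 and 2747 in Pab1-TAP. Within each group the highest library exceeded the lowest by 261-fold to 1499-fold for the 21S and by 200-fold to 3663-fold for the 15S rRNA, and the SE of every log2 fold change of these rows against input or control was 2.71 to 3.48. The 7 libraries with the high values all had more than 5% cytosolic rRNA, and Lsm1-TAP replicate 2, with 8.25%, had a low value. The labels say that rRNA was removed with RiboZero or Ribominus and do not say which library received which, and the part of the reagent in these values was not tested. Per mRNA read, the log2 ratio of mitochondrial rRNA to mRNA reads was −4.11 to −1.63 in the 11 libraries with low values and 2.86 to 5.31 in the 7 others.

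**Figure D2:**
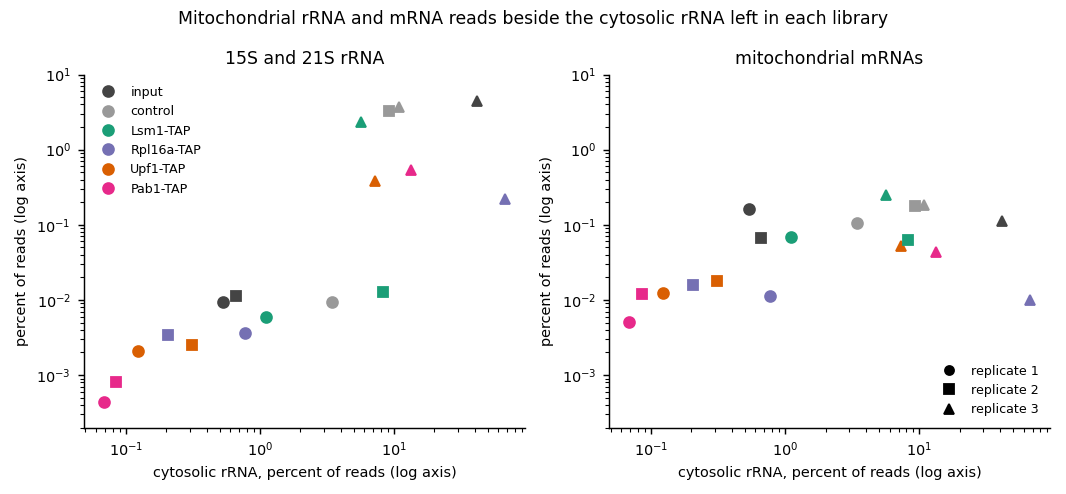
Percent of counted reads from the 15S and 21S rRNAs (left) and from the mitochondrial mRNA rows (right) against the percent from cytosolic rRNA, 1 point per library, both axes logarithmic. The rRNA share was at or below 0.0128% in 11 libraries and 0.222% or more in the other 7, whereas the mRNA share stayed between 0.00510% and 0.246%.

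For the mRNAs, replicate 3 was the highest library of Upf1-TAP and Pab1-TAP for all 6 mRNAs plotted. In Rpl16a-TAP, replicate 2 was the highest for COX1, COX2 and OLI1 and replicate 3 the lowest for COX2, and in input the low replicate 2 for COX2, COB and ATP6 had 0.661% cytosolic rRNA. In an analysis added after seeing the data, the 8 libraries over 5% cytosolic rRNA were left out. There 11 of 11 rows tested were lower than input in each of Upf1-TAP, Pab1-TAP and Rpl16a-TAP, with the rRNAs and VAR1 among them. ATP8 did not pass the filter. Control and Lsm1-TAP were left with 1 library each, and counts for these groups are not given. Of all 12172 features, 7008, 4830 and 4486 were called in Upf1-TAP, Pab1-TAP and Rpl16a-TAP against input, in either direction. The 15S rRNA was then at −5.53 ± 0.41 in Upf1-TAP, −6.99 ± 0.45 in Pab1-TAP and −3.38 ± 0.37 in Rpl16a-TAP (edgeR adjusted p = 2.86e-07, 1.78e-07 and 3.64e-05), and the 21S rRNA at −3.19 ± 0.35, −4.70 ± 0.38 and −1.57 ± 0.33 (adjusted p = 3.48e-06, 2.16e-06 and 0.00218).

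Libraries of a tagged purification and of input with the same replicate number deviated together, with correlations of 0.110 to 0.422 over features. Rpl16a-TAP replicate 2, with 0.110, correlated most with input replicate 1, so the paired values of Rpl16a-TAP rest on a pairing not seen in all its libraries. With the replicate number as a block the counts moved by more than 1.5 times. In that paired fit Upf1-TAP had 10 rows lower, Pab1-TAP had 11 and Rpl16a-TAP had 8, and Lsm1-TAP had 6 rows lower while the COX1 exons were higher (1.33 ± 0.49, edgeR adjusted p = 0.0357). Over all 12582 features the block called 6457, 4064, 3124 and 4661, higher and lower together, so these are not a background of lower calls alone. The COX1 exons passed as lower with the block in Upf1-TAP (−1.74 ± 0.49, adjusted p = 0.00532) and Rpl16a-TAP (−1.70 ± 0.49, adjusted p = 0.0157), and ATP8 passed in none of the paired comparisons. The 15S rRNA passed as lower in Upf1-TAP (−6.18 ± 1.43, edgeR adjusted p = 0.00108), Pab1-TAP (−5.69 ± 1.40, adjusted p = 0.00376) and Rpl16a-TAP (−3.70 ± 1.29, adjusted p = 0.0395), and the 21S rRNA in Upf1-TAP (−3.99 ± 1.22, adjusted p = 0.00938) and Pab1-TAP (−4.73 ± 1.25, adjusted p = 0.00626). Of VAR1 and the COB introns, VAR1 passed with the block in Pab1-TAP (−3.65 ± 1.12, edgeR adjusted p = 0.0156), and the introns passed in Upf1-TAP (−3.79 ± 0.995, adjusted p = 0.00304) and Pab1-TAP (−4.39 ± 1.06, adjusted p = 0.00325). In Lsm1-TAP the lower rows were the COX1 introns, the COB exons, ATP6, OLI1, COX2 and COX3, with COX2 at −1.16 ± 0.37 (adjusted p = 0.0165) and OLI1 at −2.16 ± 0.48 (adjusted p = 0.00128).

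The size of the differences from input depended on the scaling, because the median of all features moved with it. Scaled by total counts, that median rose to 2.33 in Upf1-TAP and 1.92 in Pab1-TAP, and was 0.65 with Rpl16a-TAP, 1.70 with Lsm1-TAP and 1.23 with control. On that scale COX2 was at −1.23 in Upf1-TAP and −2.26 in Pab1-TAP, COX3 at −3.15 and −3.75, OLI1 at −2.61 and −2.05, ATP6 at −2.00 and −3.04 and the COB exons at −1.95 and −2.31, all below 0 as under TMM. Some calls were lost with total counts. In Upf1-TAP 4 rows remained of 6, without COX2 (edgeR adjusted p = 0.0556) and the COX1 introns (−2.36, adjusted p = 0.0808), and in Pab1-TAP the COX1 exons no longer passed (−0.71, adjusted p = 0.344). Of all 12582 features, 8992 were called in Upf1-TAP and 7897 in Pab1-TAP with total counts, in either direction. The COX1 exons were above 0 in Upf1-TAP on that scale (0.65, adjusted p = 0.378), and they were called higher than input in Lsm1-TAP (3.39 ± 0.73, adjusted p = 0.00102) and in control (2.81 ± 0.71, adjusted p = 0.00592), where 6743 and 3938 of all 12582 features were called. In Upf1-TAP the direction of the COX1 exons against input thus changed with the scaling. They were below 0 in Pab1-TAP in each of 18 alternatives, and above 0 in Lsm1-TAP and control under both scalings.

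**Figure D3:**
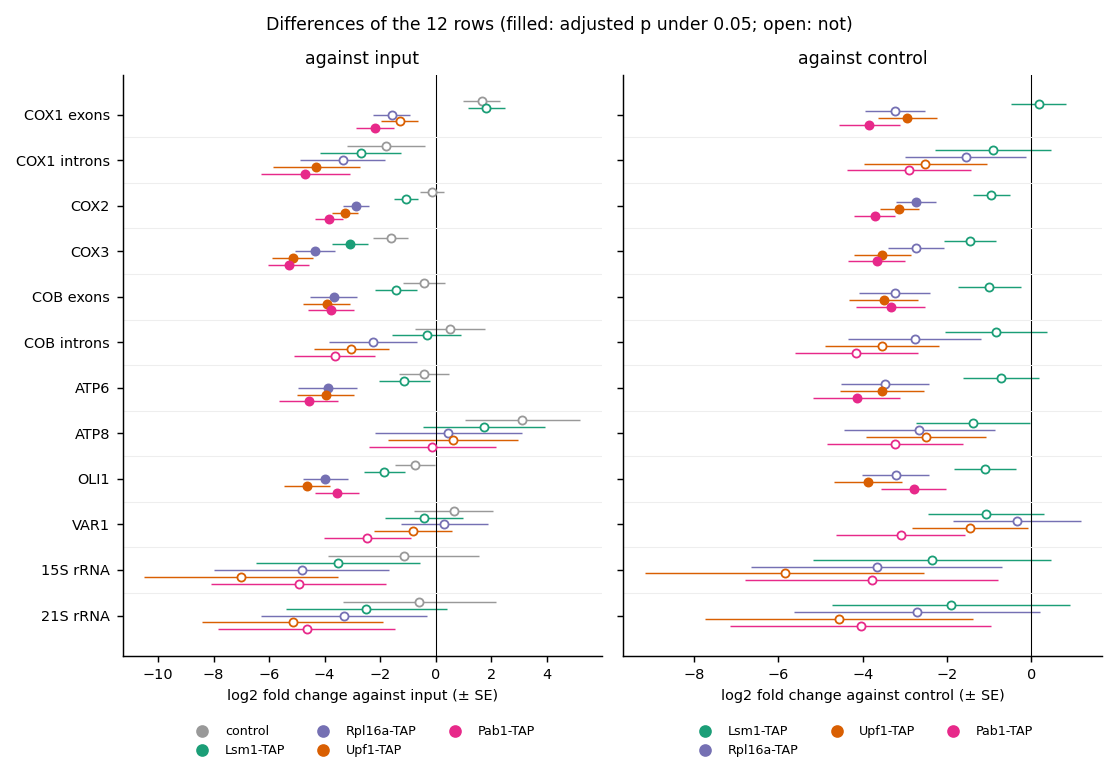
Log2 fold change (± SE) of the 12 rows against input (left) and against control (right), with filled points for an edgeR adjusted p under 0.05 and open points for the others. COX3 in Pab1-TAP against input has the lowest called value (−5.29), and the rRNA rows have the widest SE.

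Against the untagged control, Upf1-TAP and Pab1-TAP each had 6 rows lower, Rpl16a-TAP had 1 and Lsm1-TAP had 0, and none was higher. The background of features called lower was 13.9%, 8.08%, 0.246% and 0%, and of those called higher 19.8%, 8.24%, 0.0556% and 0%. The 6 rows were the same in Upf1-TAP and Pab1-TAP, namely the exons of COX1 and COB, COX2, COX3, ATP6 and OLI1, and these comparisons share the control libraries. In Upf1-TAP they were 7.68-fold to 14.7-fold lower than in control, with COX1 at −2.94 ± 0.70 and OLI1 at −3.88 ± 0.81 on the log2 scale (edgeR adjusted p = 0.00442 and 0.00195). In Pab1-TAP they were 6.91-fold to 17.7-fold lower, with COX1 at −3.84 ± 0.73 and ATP6 at −4.15 ± 1.04 (adjusted p = 0.00270 and 0.0122). Without Pab1-TAP replicate 2, 3 of the 6 rows remained called in Pab1-TAP, and COB, ATP6 and OLI1 had an adjusted p of 0.0508, 0.0537 and 0.0782. OLI1 was also lost there without control replicate 2 or 3 (0.0581 and 0.0555), and ATP6 was lost in Upf1-TAP without Upf1-TAP replicate 1 or 2 (0.0555 and 0.0570).

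In Rpl16a-TAP against control the same 6 rows were −2.73 to −3.48 on the log2 scale and none overlapped with control. The share of all features without overlap was not computed. Few features of any kind were called in this comparison, and of these 6 rows COX2 alone passed (−2.74 ± 0.47, edgeR adjusted p = 0.0231). The adjusted p of the others was 0.0626 for the COX1 exons, 0.0811 for COX3, 0.0831 for OLI1, 0.109 for the COB exons and 0.159 for ATP6. COX2 did not pass when any 1 of the 6 libraries was left out, with an adjusted p of 0.0629 to 0.186, whereas DESeq2 called 6 rows. In Lsm1-TAP against control, 2 rows had an unadjusted p under 0.05 and DESeq2 called 0. COX3 was at −1.46 ± 0.62 (adjusted p = 0.505) and the COX1 exons at 0.17 ± 0.65 (adjusted p = 0.968), a value whose sign changed with the libraries used.

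Set against Lsm1-TAP directly, 5 rows were lower in Upf1-TAP, 5 in Pab1-TAP and 2 in Rpl16a-TAP, and the background of features called lower was 6.24%, 10.1% and 4.97%. The COX1 exons were 8.65-fold lower in Upf1-TAP than in Lsm1-TAP (−3.11 ± 0.70, edgeR adjusted p = 0.00773), 16.1-fold lower in Pab1-TAP (−4.01 ± 0.73, adjusted p = 0.00235) and 10.6-fold lower in Rpl16a-TAP (−3.41 ± 0.72, adjusted p = 0.0115). COX2 was likewise lower in each, by 4.54-fold, 6.78-fold and 3.45-fold. COB and COX3 were lower in Upf1-TAP and Pab1-TAP, OLI1 in Upf1-TAP and ATP6 in Pab1-TAP. Among Upf1-TAP, Pab1-TAP and Rpl16a-TAP no row was called in any pair, where the background of features called in either direction was 23.4% for Upf1-TAP with Pab1-TAP, 41.5% for Upf1-TAP with Rpl16a-TAP and 14.2% for Pab1-TAP with Rpl16a-TAP (edgeR, with 0, 0 and 1 row at an unadjusted p under 0.05). DESeq2 was not run on these pairs.

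In the order of the group means, input, control and Lsm1-TAP took the upper places for the exons of COX1 and COB, COX2, COX3, ATP6 and OLI1, and Rpl16a-TAP, Upf1-TAP and Pab1-TAP the lower ones. Input was highest for all of these except COX1, for which control was highest and input the third. The step between the upper and the lower places was called for COX2 (Lsm1-TAP to Rpl16a-TAP, 1.79 on the log2 scale, edgeR adjusted p = 0.0286). It was not called for COB (2.24, adjusted p = 0.0917), ATP6 (2.76, adjusted p = 0.0955), OLI1 (2.12, adjusted p = 0.0863), COX3 (1.26, adjusted p = 0.207) or COX1 (input to Upf1-TAP, 1.29, adjusted p = 0.130). No other neighbours in the order of any of the 12 rows passed the test.

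Within the mitochondrial mRNA pool, counting coding rows alone, the make-up of input differed from that of all purifications, control included. COX1 was 5.38%, 7.39% and 3.13% of the pool in input and 27.8%, 22.0% and 20.7% in control. It was 36.2%, 33.2% and 45.1% in Lsm1-TAP, 28.5%, 33.9% and 31.3% in Upf1-TAP, 24.5%, 21.02% and 14.97% in Rpl16a-TAP and 19.1%, 23.9% and 12.3% in Pab1-TAP. COX3 moved the other way, with 28.0%, 24.9% and 26.8% in input and 12.3%, 13.0% and 12.4% in control. In the tagged purifications COX3 was 6.24% to 17.3% of the pool. No purification library reached the input range for either mRNA. This comparison within a library does not depend on the scaling. OLI1 was the largest part of the pool in input (48.7% ± 6.94, SD, n = 3), in Pab1-TAP (49.98% ± 9.79), in control (40.5% ± 2.40) and in Rpl16a-TAP (36.0% ± 5.94), while in Lsm1-TAP COX1 (38.2% ± 6.19) and OLI1 (32.8% ± 7.86) overlapped, as they did in Upf1-TAP (31.2% ± 2.69 and 29.8% ± 0.813). COB (6.64% to 8.28% on average) and ATP6 (4.64% to 7.80%) had similar mean shares in all 6 groups.

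**Figure D4:**
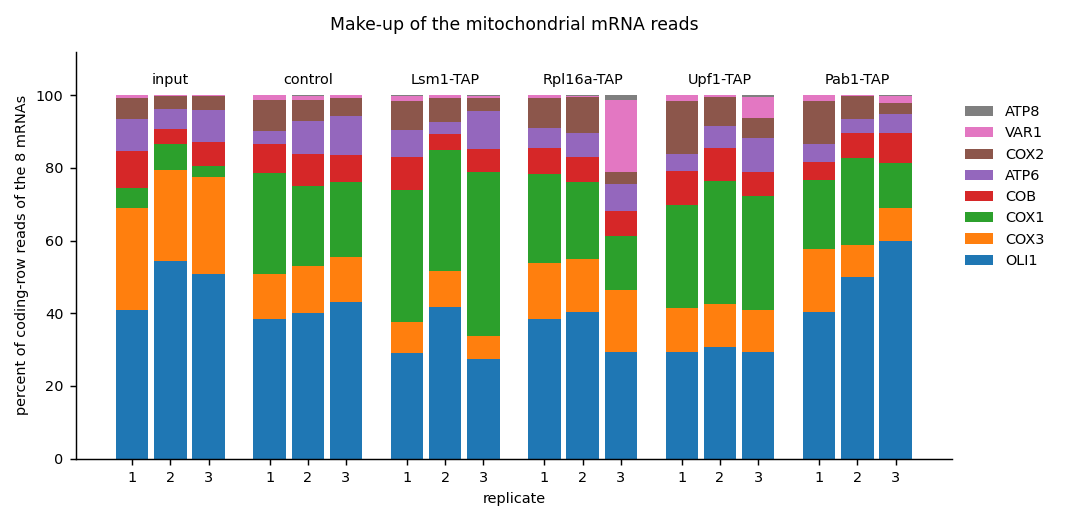
Share of each of the 8 mRNAs in the coding-row reads of the mitochondrial mRNAs, 1 stacked bar per library and bars grouped by sample group. COX1 was 3.13% to 7.39% in the input libraries and 12.3% or more in all purification libraries, and COX3 was 24.9% or more in input and 17.3% or less elsewhere.

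COX1 and COB carry introns of the self-splicing classes, and reads of their intron rows were set against those of their exon rows. For COX1 the ratio, on the log2 scale, was 2.83, 0.45 and 3.84 in input, −2.19, −0.60 and −0.18 in control and −2.13, −2.46 and −1.54 in Lsm1-TAP. It was −1.76, −2.57 and 0.31 in Upf1-TAP, −1.40, −1.28 and 2.49 in Rpl16a-TAP and −1.28, −3.14 and 0.96 in Pab1-TAP. Control, Lsm1-TAP and Upf1-TAP did not overlap with input, by −3.36, −4.41 and −3.71 in the mean, each with p = 0.10 in an exact two-sided permutation test, the smallest p that 3 against 3 libraries allow. Rpl16a-TAP (−2.44) and Pab1-TAP (−3.52) overlapped with input through their replicate 3 (p = 0.20 for each, exact permutation). In a paired form, added after seeing the data, the ratio was below that of the same-numbered input library in 3 of 3 pairs in each tagged purification, by 1.34 to 5.38 on the log2 scale, with p = 0.25 in an exact permutation of signs, the smallest that 3 pairs allow. Adjusted over the 10 comparisons of this kind none can pass 0.05. For COB the ratio was −3.07, −5.74 and −4.25 in input and −2.45, −2.56 and −2.85 in control, higher in control by 1.73 (exact permutation p = 0.10), and the differences of 0.67 to 1.68 in the tagged purifications had p = 0.20 to 0.50 (exact permutation). Paired by number, COB was above input in 3 of 3 pairs in Lsm1-TAP (exact p = 0.25) and in 2 of 3 in each other tagged purification (exact p = 0.50). The 21S rRNA also has an intron but has no intron row, and its ratio could not be computed.

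**Figure D5:**
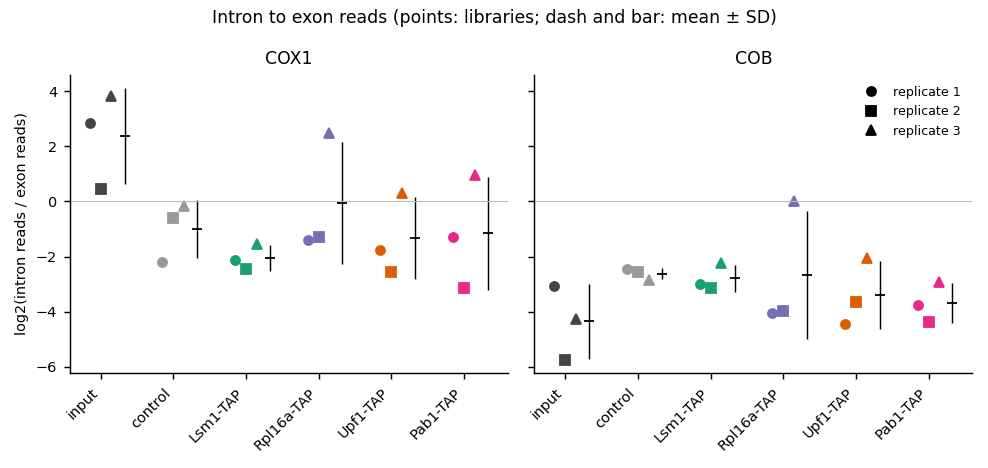
Log2 ratio of intron to exon reads (pseudocount 0.5) of COX1 and COB in every library, by group, with the mean ± SD of 3 libraries to the right of the points. For COX1 the input mean was 2.37 and the means of the purifications lay between −2.04 and −0.06, and for COB input had the lowest mean (−4.35).

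Nuclear genes whose products work with these RNAs, or with the proteins that these RNAs encode, are translated in the cytoplasm. Lists of such genes gave other counts. Of 10 nuclear subunits of cytochrome c oxidase, 0 were lower than input in any purification and 1 was higher, in Pab1-TAP, with a median log2 fold change of −0.79 in Upf1-TAP, 1.15 in Pab1-TAP and 0.44 in Rpl16a-TAP. The 4 with the most reads, COX13, COX5A, COX5B and COX9, passed in none of these comparisons. Of 9 nuclear subunits of complex III, 3 were lower and 1 higher in Upf1-TAP and 3 were higher and 0 lower in Pab1-TAP. QCR6 was higher than input in all 5 purifications (2.27 ± 0.45 in control), and QCR2, a core protein, was lower in Upf1-TAP (−1.34 ± 0.33). Of 14 nuclear subunits of the ATP synthase, 8 were lower in Upf1-TAP and 1 was lower and 1 higher in Pab1-TAP. ATP2, the catalytic beta subunit, was lower in both (−1.85 ± 0.51 and −1.65 ± 0.50), and ATP1, the alpha subunit, was lower in Upf1-TAP (−1.50 ± 0.39) and at −0.63 ± 0.39 in Pab1-TAP, where it did not pass.

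The 72 mRNAs of mitochondrial ribosomal proteins were counted in the same way. In Upf1-TAP 26 were lower than input and 3 higher (median −0.93), in Pab1-TAP 21 were higher and 0 lower (median 0.70), and in Rpl16a-TAP 11 were higher and 0 lower (median 0.69). MRPS12 was lower in Upf1-TAP (−2.73 ± 0.36) and at −0.08 ± 0.34 in Pab1-TAP, where it did not pass. Of 17 translation activators of the mitochondrial mRNAs, Upf1-TAP had 7 higher and 2 lower, and Pab1-TAP had 7 higher and 0 lower. AEP1, which acts on the OLI1 mRNA, was higher than input in Upf1-TAP (3.20 ± 0.60), Lsm1-TAP (3.05 ± 0.60), Pab1-TAP (1.77 ± 0.57) and also control (1.82 ± 0.58), and its difference between Upf1-TAP and control did not pass (1.38 ± 0.54, edgeR adjusted p = 0.0580). MSS51, the activator of COX1, was lower in Upf1-TAP (−1.74 ± 0.38). Of 16 factors of mitochondrial transcription and RNA processing, 9 were higher and 1 lower in Lsm1-TAP, and 8 were higher in control. RPO41, the mitochondrial RNA polymerase, was higher than input in control (1.41 ± 0.32) and lower than control in Upf1-TAP (−1.45 ± 0.32) and Pab1-TAP (−1.37 ± 0.32). These counts can be read against the same background shares as above.

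Of the other rows of mitochondrial DNA, only Q0182 and Q0255 passed the filter among 12, and none of the 24 mitochondrial tRNA rows did. Q0182 was lower than input in Upf1-TAP (−2.84 ± 1.03) and Pab1-TAP (−3.45 ± 1.09). The exon row of Q0255 was lower than control in Upf1-TAP (−3.00 ± 1.11) and Pab1-TAP (−3.92 ± 1.26).

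Outside mitochondrial DNA, the features whose levels over the 18 libraries were most like the mean profile of the 10 mRNA rows were sought among 4812 features with at least 20 CPM. By the root mean square difference of centred log2 CPM, the nearest were the exon row of snR17a (0.778), the RNA NME1 (1.06), snR30 (1.07), and the 5′ untranslated rows of URA2 (1.11) and PFK1 (1.12), against a median of 2.04 over all features compared. snR17a is a U3 RNA of the small nucleolar class, snR30 belongs to that class as well, and NME1 is the RNA of ribonuclease MRP. Among the 10 mRNA rows themselves, which make up the profile, the same measure was 0.514 for the COB exons, 0.564 for ATP6, 0.777 for OLI1, 0.846 for COX2, 0.854 for COX3, 1.00 for the COX1 exons and up to 1.44 for ATP8. snR17a was thus nearer to the profile than 7 of the 10 rows. The centred log2 mean of snR17a was 1.61 in input, 1.74 in control, 0.75 in Lsm1-TAP, −0.04 in Rpl16a-TAP, −1.41 in Upf1-TAP and −2.65 in Pab1-TAP, beside 1.78, 1.93, 0.85, −0.83, −1.59 and −2.15 for the mitochondrial profile. Among all 38 small nucleolar and spliceosomal RNA rows tested, 8 were lower than input in Upf1-TAP, 6 in Pab1-TAP and 1 in Rpl16a-TAP, where 1 was also higher. Over all features, 15.9%, 7.89% and 4.00% were lower in these comparisons.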

How the data were processed

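RNA was measured in 18 libraries, of 6 groups with 3 replicates each. The deposited values are raw read counts per feature. According to the methods and the submitters' processing notes, the authors trimmed reads with cutadapt 1.16, aligned them with STAR 2.7 to the S288C genome, and obtained counts by featureCounts (Subread 1.6.2). The alignment had an upper limit on intron length, and reads of bases shared by annotated features can be lost in counting. Both bear on COX1 and COB.

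Features were kept where 3 or more libraries had 10 reads or more (12582). A single fit of all 18 libraries, with group as the only factor and TMM factors, was made in R 4.3.3 by the quasi-likelihood functions of edgeR 4.0.16, which left 12 degrees of freedom, and Benjamini-Hochberg adjustment at 0.05 covered every feature tested. Intron to exon ratios used a pseudocount of 0.5 and an exact permutation of libraries. Ratios and shares were computed with pandas 2.3.3, numpy 2.4.6 and scipy 1.17.1 under Python 3.11.15, and figures drawn by matplotlib 3.10.9. The fit was tested on simulated data. Alternatives were RLE and total-count scaling, DESeq2 1.42.0, other filters, the replicate number as a block, 6 libraries only, and libraries left out.

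The study describes its replicates as independent experiments. Deviations from the group mean correlated between a tagged purification and input of the same number at 0.110 to 0.422. Pairing was used only in the fit with the replicate number as a block and in the paired intron to exon ratios. All other calls and fold changes come from fits without pairing. The lowest value was that of Rpl16a-TAP replicate 2, which correlated most with input replicate 1. Control and input of the same number did not all deviate together, with −0.157 for replicate 2, although control replicates 1 and 3 had 0.335 and 0.218.

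The group of genes was proposed, and the lists were drawn up, with earlier results of these data known, although its members are set by gene name. Genes of a list were named by the most reads, up to 4, and the features most like the members by the smallest difference in profile. Sequences and positions are from RefSeq assembly R64, the build of the files.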

Additional observations from a re-analysis of the deposited data

How the results depend on the processing

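Counts of members called changed with the replicates used and with the replicate block. Leaving out a replicate number from every group, or a single library, gave between 4 and 10 called rows for Upf1-TAP against input, between 0 and 11 for Pab1-TAP, between 0 and 9 for Rpl16a-TAP, between 0 and 6 for Lsm1-TAP and between 0 and 3 for control. Against control it gave between 0 and 11 for each of Upf1-TAP, Pab1-TAP and Rpl16a-TAP and between 0 and 2 for Lsm1-TAP. Without replicate 2 of every group the count was 0 in all comparisons except Upf1-TAP against input (4). Few features of any kind passed there: of 11546 tested, 1151 were called in that comparison, 54 in Lsm1-TAP against input, 84 in Upf1-TAP against control and 0 in the others, while 7 members in Pab1-TAP and 5 in Rpl16a-TAP had an unadjusted p under 0.05 against input (edgeR, and DESeq2 was not run in this setting). Without replicate 3 of every group the count reached the upper end of each of these ranges. Of all 12277 features tested there, 6063, 3507, 3018, 4394 and 3460 were called against input, in either direction. The order is Upf1-TAP, Pab1-TAP, Rpl16a-TAP, Lsm1-TAP and control. Against control, 5363, 2472, 242 and 104 were called for the tagged proteins in the same order. The cause of these shifts was not tested.

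With the replicate block the counts were 10, 11, 8, 7 and 3 against input, for Upf1-TAP, Pab1-TAP, Rpl16a-TAP, Lsm1-TAP and control, of which 1 in Lsm1-TAP and 2 in control were higher. Against control they were 12, 12, 10 and 3, all lower, and each 12 includes ATP8, whose depth allows no reading. Over all 12582 features the block called 6457, 4064, 3124, 4661 and 3736 against input, in either direction. Against control it called 6259, 3881, 628 and 422. Same-numbered libraries of control and input did not all deviate together, and the pairing of control is not given by the labels. Without the 8 libraries over 5% cytosolic rRNA the counts against input were 11 in each of Upf1-TAP, Pab1-TAP and Rpl16a-TAP. Of all 12172 features tested there, 7008, 4830 and 4486 were called, in either direction. Control and Lsm1-TAP were left with 1 library each, and counts for comparisons with these groups are not given. For Lsm1-TAP against input, total-count scaling, with or without rRNA rows, called 2 rows, DESeq2 4, no filter 2, a minimum of 10 reads in every library 2 and the fit of 6 libraries 4, each with 1 of them higher. Of all features these settings called 6743 and 7081 of 12582, 3395 of 12582, 2590 of 18517, 1776 of 4328 and 2682 of 9979. For control against input, total-count scaling called 1 row, higher, either way, DESeq2 called 1, lower, and the fit of 6 libraries 2, of which 1 was higher. Of all features they called 3938 and 4869 of 12582, 2617 of 12582 and 1940 of 8692. The 3 rows called without replicate 3 were 2 higher and 1 lower. For Rpl16a-TAP against control, RLE called 2, total-count scaling 5 either way, DESeq2 6, no filter 4, 10 reads in every library 3 and the fit of 6 libraries 4. Of all features they called 46 of 12582, 31 and 181 of 12582, 391 of 12582, 53 of 18517, 129 of 4328 and 13 of 9165. Pab1-TAP against input fell to 4 of 7 rows tested with 10 reads in every library, where 1254 of 4328 features were called.

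No called member changed its sign in 570 alternative values, of which 89 no longer passed. Of 1279 values of members not called, 85 changed sign. Among those given in the report, the COX1 exons in Upf1-TAP against input moved to 0.65 with total counts and 0.51 without rRNA rows, COX2 in Lsm1-TAP against input to 0.51 and 0.32, and the COX1 exons in Lsm1-TAP against control to −0.12 with the replicate block, −0.59 without libraries over 5% cytosolic rRNA, and −0.92 to 0.57 with replicates left out. The mean share of reads from mitochondrial DNA in Rpl16a-TAP moved from 0.0892% to 0.249% when cytosolic rRNA was taken out of the total. Depth limits ATP8, VAR1 and the COB introns, which held under 10 reads in 15, 5 and 7 libraries.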
